A study of Sus scrofa with 36 samples.

Results

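The 10 genes described here belong to the Toll-like receptor and NF-kB pathway of inflammation and were chosen by name, not by their values: TLR2, TLR4, CD14, MYD88, NFKB1, NFKBIA, IL1B, TNF, IL6 and IL18. They were looked up among the 31907 genes counted in the cerebellum of young pigs, of which 15029 could be paired with a gene symbol. In this way 8 of the 10 genes were found. IL1B and TNF were not analysed here. Of the 8 genes found, 7 had enough reads for the tests, and IL6 did not.

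Toll-like receptors sit on innate immune cells and recognise molecules from microbes and from damaged tissue. TLR4 reads bacterial lipopolysaccharide with the help of the co-receptor CD14, while TLR2 reads bacterial lipoproteins, and both pass the signal through the adaptor MYD88 to the NF-kB transcription factors. At rest NF-kB is held in the cytoplasm by the inhibitor encoded by NFKBIA, and once released it switches on cytokine genes such as IL1B, TNF and IL6, together with NFKBIA itself, which closes the loop. In the healthy brain these receptors are found mainly on microglia, the resident macrophages.

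The cerebellum was taken from term-born crossbred piglets that had been fed for 3 weeks, from 3 days of age, a milk formula made with vegetable oil (VEG) or with bovine milk fat (MILK). Within each diet the piglets were of normal birth weight (NBW) or of spontaneously low birth weight (IUGR), so that 9 piglets, females and males together, made up each of VEG-NBW, MILK-NBW, VEG-IUGR and MILK-IUGR. The piglets came from several litters, and litter could not be entered in the tests because the labels do not give it. Every piglet received toltrazuril against coccidiosis. By the paper most piglets had diarrhoea under either diet, and those that did received gentamicin, with zinc oxide and electrolytes in ongoing cases. A few that were lame at arrival received meloxicam and enrofloxacin. The labels do not say which piglets were given these drugs, so that their part in the levels of inflammation genes was not tested. Whole tissue was sequenced, and in such bulk RNA fewer cells of a type and less RNA per cell cannot be told apart.

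Of the 36 libraries, 33 entered the comparisons: 8 piglets of each group except MILK-IUGR, which kept all 9. They held 15516541 to 23027502 reads on genes, with a median of 18025540, and between 18635 and 19682 genes with at least 1 read. The other 3 libraries were piglet 202 of VEG-NBW, piglet 210 of VEG-IUGR and piglet 213 of MILK-NBW. They stood apart from their groups in the share of reads counted for no gene, ambiguous reads included. This share was 43.6%, 64.3% and 31.5%, against 26.7% to 30.5% in the libraries kept. The tissue label was borne out by its markers, since the 5 granule neuron genes together reached 1708 to 2714 CPM (reads on a gene per 1000000 reads on all genes of the library) in every library kept, and the 5 Purkinje cell genes 1422 to 3003 CPM. Blood leukocyte genes were low, with the 4 neutrophil and monocyte genes measured summing to 0.371 to 2.07 CPM and the 4 lymphocyte genes to 0.478 to 2.54 CPM. Of the first list, S100A8 and CSF3R had reads in all 33 libraries, S100A12 in 15 and LYZ in none, and of the second, CD79A had reads in 33, CD3D in 26, CD3E in 18 and MS4A1 in 6.

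None of the 7 genes tested passed the test for a difference between the diets, between the birth weights or between any pair of groups. Each gene was compared in 8 ways, for diet, birth weight, their interaction, the 4 pairs of groups that share a diet or a birth weight, and sex. Of the resulting 56 tests with edgeR's quasi-likelihood method, 0 had an adjusted p under 0.05 and 0 had an unadjusted p under 0.05, and DESeq2 and limma voom also gave 0 at both thresholds. The lowest unadjusted p was 0.132 and the lowest adjusted p was 0.779, both for TLR2 in MILK-NBW against VEG-NBW. For the 7 genes the adjusted p was 0.985 to 0.998 by diet, 0.9996 by birth weight and 0.836 to 0.936 for the interaction, with Benjamini-Hochberg adjustment over all 15356 genes tested. Differences between groups are given below as log2 fold changes of the edgeR fit over all 33 libraries, with 95% confidence intervals (CI) of the unadjusted estimate, which show how large a difference the data still allow.

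The background was as low after adjustment. The percentage of all genes called at an adjusted p under 0.05 was 0 for diet, birth weight, the interaction and each of the 4 pairs of groups, and 0.163 for sex. Without adjustment 4.26% of genes had a p under 0.05 for diet, 2.19% for birth weight, 6.09% for the interaction, 6.67% for MILK-NBW against VEG-NBW, 3.9% for MILK-IUGR against VEG-IUGR, 2.29% for VEG-IUGR against VEG-NBW, 6.24% for MILK-IUGR against MILK-NBW and 2.94% for sex. A count of 0 among 7 genes therefore does not set the 7 genes apart from the rest. The median of their log2 fold changes was 0.03 by diet and -0.02 by birth weight, and the median size of the change regardless of sign was 0.06 for both, beside 0.05 and 0.04 over all genes. For the interaction the median was 0.12, with 6 of 7 estimates above 0, beside a median of -0.0017 over all genes. The median size regardless of sign was 0.12 for the 7 genes and 0.12 over all genes.

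**Figure D1:**
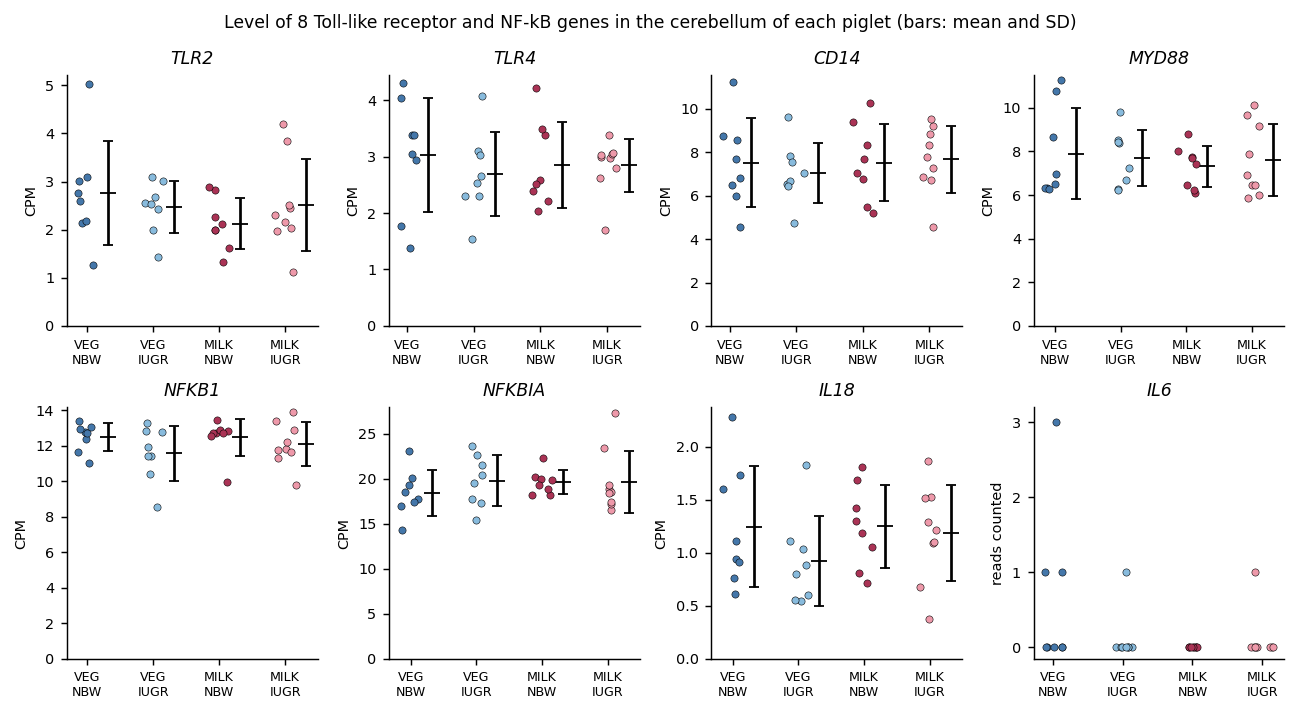
Levels of 8 genes in the cerebellum of 33 piglets, 1 point per piglet, by group along the x axis; the y axis gives CPM, or the number of reads for IL6, and the bar beside each group gives its mean and SD. The 4 groups overlap for every gene, and IL6 has a read in 5 of 33 libraries.

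TLR2, the receptor for lipoproteins (ENSSSCG00000009002, chromosome 8, 75416257 to 75428370 of Sscrofa11.1), was counted 21 to 84 times per library, with a median of 43. Its lowest, median and highest level was 1.26, 2.68 and 5.03 CPM in VEG-NBW and 1.44, 2.54 and 3.09 CPM in VEG-IUGR. In MILK-NBW these were 1.33, 2.05 and 2.89 CPM, and in MILK-IUGR 1.11, 2.30 and 4.20 CPM. The ranges of all groups overlapped, and the lowest and the highest piglet of the VEG-NBW group (215 and 216) spanned nearly the whole range of the gene.

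The group means of TLR2 ran from 2.76 ± 1.09 CPM (SD, n = 8) in VEG-NBW through 2.51 ± 0.952 (n = 9) in MILK-IUGR and 2.46 ± 0.537 (n = 8) in VEG-IUGR to 2.13 ± 0.537 (n = 8) in MILK-NBW, and each step was smaller than the SDs beside it. In MILK-NBW against VEG-NBW the log2 fold change was -0.37 (95% CI -0.85 to 0.12, adjusted p = 0.779), and the MILK-NBW piglet had the higher level in 28.1% of the pairs that can be formed between these groups. This estimate rested on single VEG-NBW piglets, since it was -0.48 without piglet 215 (adjusted p = 0.795, with the unadjusted p just under 0.05) and -0.14 without piglet 216. Without piglet 216 the interaction and the diet estimate given next were also nearer to 0, at 0.14 and -0.07. In MILK-IUGR against VEG-IUGR the log2 fold change was 0.01 (-0.46 to 0.47), and the interaction was 0.37 (-0.30 to 1.04). Averaged over birth weight the diets differed by -0.17 (-0.51 to 0.16), and averaged over diet the birth weights differed by 0.04 (-0.29 to 0.38).

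TLR4, the lipopolysaccharide receptor (ENSSSCG00000005503, chromosome 1, 258044610 to 258054641), was counted 24 to 77 times per library. The lowest, median and highest level was 1.37, 3.21 and 4.31 CPM in VEG-NBW and 1.55, 2.59 and 4.08 CPM in VEG-IUGR. It was 2.03, 2.55 and 4.22 CPM in MILK-NBW and 1.70, 2.99 and 3.38 CPM in MILK-IUGR. The 4 groups covered much the same range.

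The order of the TLR4 means was VEG-NBW (3.03 ± 1.02 CPM), then MILK-NBW and MILK-IUGR (2.85 ± 0.761 and 2.85 ± 0.477), then VEG-IUGR (2.69 ± 0.743), with no neighbours further apart than their SDs. The difference between the diets was close to 0 on the log2 scale (-0.0037, 95% CI -0.29 to 0.28). The birth weights differed by -0.07 (-0.36 to 0.21).

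CD14, the co-receptor that hands lipopolysaccharide to TLR4 (ENSSSCG00000014369, chromosome 2, 142348036 to 142349686), was counted 80 to 212 times. Its lowest, median and highest level was 4.58, 7.23 and 11.3 CPM in VEG-NBW, 4.76, 6.87 and 9.62 CPM in VEG-IUGR, 5.21, 7.38 and 10.3 CPM in MILK-NBW, and 4.56, 7.79 and 9.56 CPM in MILK-IUGR. The group ranges lay over one another. The means were 7.68 ± 1.55 CPM in MILK-IUGR (n = 9), 7.53 ± 1.77 in MILK-NBW, 7.52 ± 2.04 in VEG-NBW and 7.06 ± 1.39 in VEG-IUGR (n = 8 each), in this order and all within 1 SD of each other. The diets differed by 0.07 on the log2 scale (95% CI -0.17 to 0.30) and the birth weights by -0.02 (-0.25 to 0.22).

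MYD88, the adaptor that most Toll-like receptors and the receptors of IL1B and IL18 share (ENSSSCG00000011251, chromosome 13, 22976951 to 22979568), was counted 92 to 205 times. Its position overlaps that of ACAA1, and the counting was not stated to use the strand. Reads ambiguous between genes were counted apart from the genes, so that reads in the overlap might be missing from the count of MYD88. Its lowest, median and highest level was 6.30, 6.74 and 11.3 CPM in VEG-NBW, 6.23, 7.80 and 9.81 CPM in VEG-IUGR, 6.10, 7.56 and 8.81 CPM in MILK-NBW, and 5.86, 6.93 and 10.1 CPM in MILK-IUGR. The groups shared nearly the same floor near 6 CPM and differed in how far single piglets rose above it.

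Mean MYD88 was 7.89 ± 2.09 CPM in VEG-NBW, 7.70 ± 1.29 in VEG-IUGR, 7.62 ± 1.65 in MILK-IUGR and 7.31 ± 0.958 in MILK-NBW, again without a step beyond the SDs. On the log2 scale MILK differed from VEG by -0.06 (95% CI -0.26 to 0.14) and IUGR from NBW by 0.03 (-0.17 to 0.23).

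NFKB1 encodes the p105 precursor of an NF-kB subunit (ENSSSCG00000030957, chromosome 8, 118391010 to 118478927). It was counted 166 to 309 times and was the steadiest of the 7 genes. Its lowest, median and highest level was 11.0, 12.7 and 13.4 CPM in VEG-NBW, 8.57, 11.7 and 13.3 CPM in VEG-IUGR, 9.98, 12.7 and 13.5 CPM in MILK-NBW, and 9.76, 11.8 and 13.9 CPM in MILK-IUGR. Both NBW groups had the higher median, although the ranges overlapped throughout.

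The NFKB1 means were 12.5 ± 0.781 CPM in VEG-NBW and 12.5 ± 1.05 in MILK-NBW, followed by 12.1 ± 1.23 in MILK-IUGR and 11.6 ± 1.53 in VEG-IUGR. Birth weight gave a log2 fold change of -0.06 (95% CI -0.17 to 0.05), and VEG-IUGR against VEG-NBW gave -0.09 (-0.25 to 0.07). The diets differed by 0.03 (-0.08 to 0.14). These were the narrowest intervals of the 7 genes.

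NFKBIA, the inhibitor and at the same time a fast target of NF-kB (ENSSSCG00000001952, chromosome 7, 64508119 to 64510754, overlapping the non-coding gene LOC110261573), had the most reads, 249 to 563 per library. Its lowest, median and highest level was 14.3, 18.1 and 23.1 CPM in VEG-NBW, 15.4, 20.0 and 23.6 CPM in VEG-IUGR, 18.2, 19.5 and 22.3 CPM in MILK-NBW, and 16.5, 18.5 and 27.3 CPM in MILK-IUGR. The MILK-NBW group was the tightest, and the top value of MILK-IUGR came from piglet 225.

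Mean NFKBIA was 19.7 ± 2.81 CPM in VEG-IUGR, 19.6 ± 1.33 in MILK-NBW, 19.6 ± 3.47 in MILK-IUGR and 18.4 ± 2.57 in VEG-NBW, the last of which lay less than 1 SD below the others. The log2 fold change by diet was 0.04 (95% CI -0.10 to 0.18), that by birth weight 0.06 (-0.07 to 0.20), and that of VEG-IUGR against VEG-NBW 0.11 (-0.09 to 0.31).

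IL18, a cytokine of the IL-1 family that is stored as a precursor and cut by CASP1 (ENSSSCG00000015037, chromosome 9, 39839959 to 39861258), was the cytokine gene with enough reads to test, with 7 to 38 per library. Its lowest, median and highest level was 0.614, 1.03 and 2.27 CPM in VEG-NBW and 0.545, 0.844 and 1.83 CPM in VEG-IUGR. In MILK-NBW it was 0.717, 1.24 and 1.81 CPM, and in MILK-IUGR 0.371, 1.22 and 1.87 CPM. The VEG-IUGR group lay lowest by its median, but its top piglet (217) reached the upper end of the MILK groups.

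The IL18 means were 1.25 ± 0.387 CPM in MILK-NBW, 1.24 ± 0.570 in VEG-NBW, 1.18 ± 0.452 in MILK-IUGR and 0.918 ± 0.425 in VEG-IUGR. VEG-IUGR against VEG-NBW gave the largest log2 fold change among the 7 genes outside the interaction, -0.44 (95% CI -1.03 to 0.16), and the VEG-IUGR piglet was the higher in 29.7% of the pairs. This estimate moved with single piglets and with the choice of libraries. It was -0.64 without piglet 217 (adjusted p = 0.9999), -0.22 without piglet 216, and -0.73 with all 36 libraries (adjusted p = 0.483), and the unadjusted p was under 0.05 in the first and the last of these. MILK-IUGR against VEG-IUGR gave 0.36 (-0.23 to 0.94), which became 0.57 without piglet 217 and 0.27 without piglet 232. Over all 4 groups the diets differed by 0.19 (-0.22 to 0.60) and the birth weights by -0.26 (-0.67 to 0.15). Without piglet 216 these were 0.31 and -0.16, and without piglet 217 the birth weights differed by -0.34.

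IL6, the cytokine of the acute phase response (ENSSSCG00000020970, chromosome 9, 91506421 to 91510830), was close to the limit of detection. It had a read in 5 of the 33 libraries and 7 reads in all, of which 5 came from 3 VEG-NBW libraries, 3 of them from piglet 221. VEG-IUGR and MILK-IUGR each had 1 library with 1 read, and MILK-NBW had none. No fold change was taken from these reads, which were too few for a comparison of the groups.

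**Figure D2:**
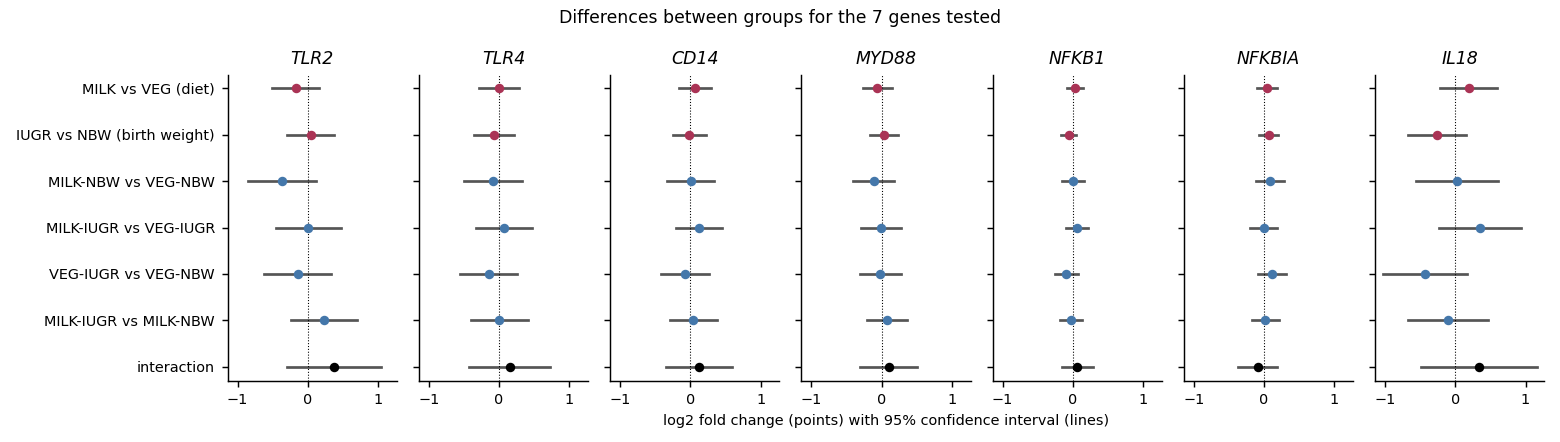
Log2 fold changes on the x axis (points) with 95% confidence intervals (lines) for the 7 genes tested, with 1 row per comparison (red for diet and birth weight, blue for pairs of groups, black for the interaction). Every interval crosses 0, those of NFKB1 and NFKBIA are narrow, and those of TLR2 and IL18 are wide.

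How finely a difference could be seen was set by the spread between piglets and by the number of reads. The variation between piglets beyond counting error was largest for IL18 (a coefficient of variation of 34.1%) and TLR2 (29.6%), then TLR4 (24.7%), CD14 (22.1%), MYD88 (18.8%) and NFKBIA (13.3%), and smallest for NFKB1 (9.55%). The median over all genes was 13.7%, below the values of the receptors, the co-receptor, the adaptor and the cytokine. They were not compared with genes of a similar number of reads. Counting error made up 13.1% to 33.1% of the variance of the 7 genes, with the largest share for NFKB1.

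The same few piglets stood at the ends of several genes. Piglet 216 of VEG-NBW had the highest level of TLR2, TLR4, CD14, MYD88 and IL18, and piglet 225 of MILK-IUGR that of NFKB1 and NFKBIA. Piglet 206 of MILK-IUGR was among the 3 lowest piglets for 7 of 7 genes and the lowest for 3 of them, and piglet 215 of VEG-NBW was among the 3 lowest for 4 genes. The summed level of 9 microglia marker genes was 298 CPM in piglet 216, the highest of the 33, and 98.1 and 139 CPM in piglets 206 and 215, the lowest. In piglet 225 it was 160 CPM, which ranked 29 of 33. The share of reads counted for no gene also stood at its ends in these piglets. It was 30.5% in piglet 215, the highest of the 33, and 26.9% in piglet 216, which ranked 32. Its part in their levels was not tested.

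**Figure D3:**
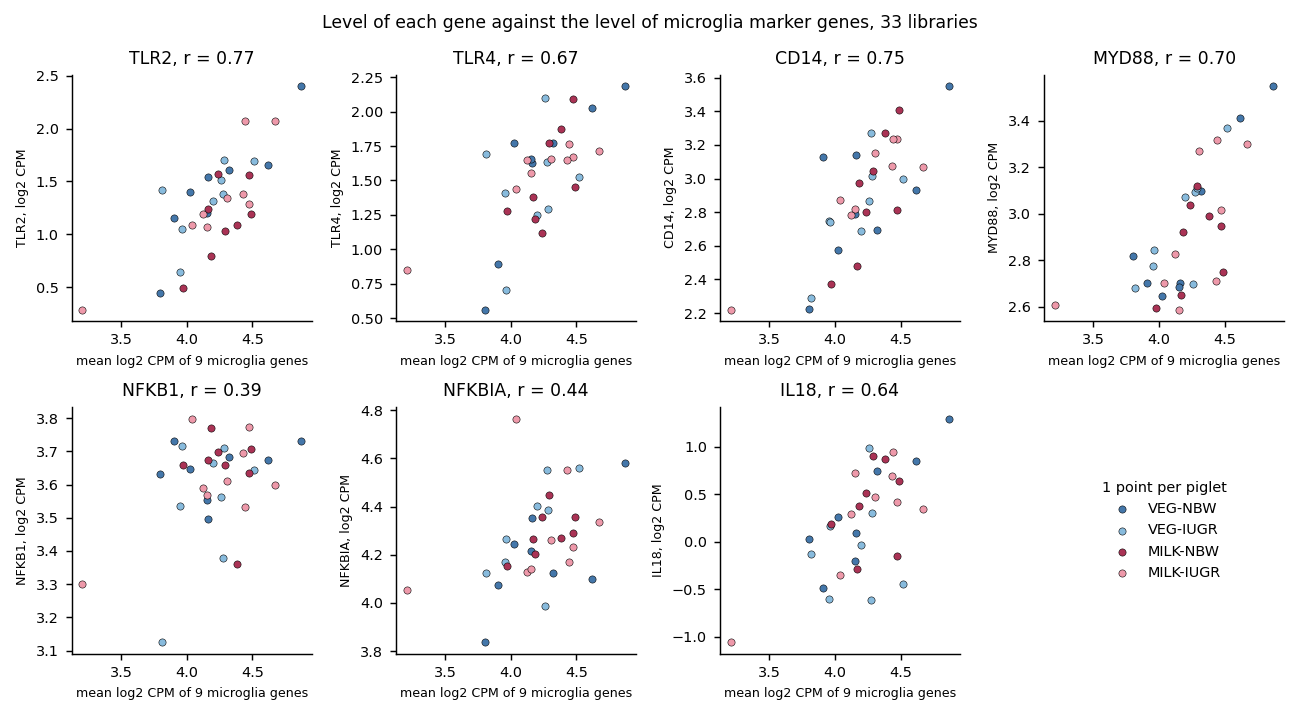
Log2 CPM of each of the 7 genes (y axis) against the mean log2 CPM of 9 microglia marker genes (x axis), 1 point per piglet coloured by group. TLR2, CD14, MYD88, TLR4 and IL18 rise with the microglia genes (r between 0.64 and 0.77), NFKBIA and NFKB1 less steeply (0.44 and 0.39).

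The level of the receptors, the adaptor and IL18 followed that of the microglia genes AIF1, CSF1R, P2RY12, CX3CR1, C1QA, C1QB, C1QC, ITGAM and TREM2 from piglet to piglet. Over 33 piglets Pearson's r was 0.77 for TLR2 (Spearman's rho 0.66), 0.75 for CD14 (0.68), 0.70 for MYD88 (0.73), 0.67 for TLR4 (0.59) and 0.64 for IL18 (0.57). In 100000 permutations p was 1e-05 for TLR2 and CD14, the smallest value they can give, 2e-05 for MYD88, 3e-05 for IL18 and 4e-05 for TLR4, and the Benjamini-Hochberg adjusted values over the 7 genes were 3.5e-05, 3.5e-05, 4.67e-05, 5.25e-05 and 5.6e-05. The permutation p of rho for these 5 genes was 5e-05, 4e-05, 2e-05, 0.00059 and 0.00041 in the order TLR2, CD14, MYD88, IL18 and TLR4. Without the 2 piglets farthest from the median of the microglia genes, r was 0.65 for TLR2, 0.65 for CD14, 0.67 for MYD88, 0.59 for TLR4 and 0.45 for IL18.

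NFKBIA and NFKB1, which many cell types use, followed the microglia genes less closely. For NFKBIA r was 0.44 and rho 0.46 (permutation p = 0.0105 and 0.00682, adjusted p of r = 0.0122), and r was 0.32 without the 2 farthest piglets. For NFKB1 r was 0.39 and rho 0.20 (permutation p = 0.0286 and 0.254, adjusted p of r = 0.0286), and r fell to 0.17 without the 2 farthest piglets, so that this relation rested on them. Adjusted over the 63 correlations with all marker lists described further on, p of r was 0.0901 for NFKB1. Among the 15347 genes tested other than the markers, r with the microglia genes ranked 42 for TLR2, 63 for CD14, 96 for MYD88, 140 for TLR4 and 210 for IL18, against 1252 for NFKBIA and 1692 for NFKB1, and the median over all genes was 0.00.

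Removing the differences between groups changed r little. Taking out the group means and sex left r at 0.84 for TLR2, 0.75 for CD14, 0.73 for MYD88, 0.68 for TLR4, 0.66 for IL18, 0.47 for NFKBIA and 0.37 for NFKB1, of which the last was 0.19 without the 2 farthest piglets (rho 0.25). With all 36 libraries CD14 gave r = -0.42 with the microglia genes but rho = 0.51, and r was 0.63 again without the 2 farthest libraries. The median summed level of the microglia genes was 181 CPM in VEG-NBW, 191 in VEG-IUGR, 198 in MILK-NBW and 206 in MILK-IUGR, with overlapping ranges (139 to 298, 143 to 228, 172 to 237 and 98.1 to 243). Of the 9 microglia genes, 0 had an unadjusted p under 0.05 for diet or birth weight with edgeR. The part of the microglia content of the sample in the levels of the 7 genes was not tested.

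Markers of 8 other cell types were set against the 7 genes in the same way after the values had been seen, and the resulting 63 correlations, microglia included, were adjusted together. The granule neuron genes were lower where MYD88 and CD14 were higher, and for TLR2 this passed by r only. Here r was -0.59 for MYD88 (rho -0.62, adjusted permutation p = 0.00262 and 0.00236), -0.58 for CD14 (rho -0.49, 0.00432 and 0.0335) and -0.48 for TLR2 (rho -0.39, 0.0239 and 0.0922). Without the 2 farthest piglets these r were -0.63, -0.59 and -0.54. For TLR4 r was -0.39 (rho -0.30) and did not pass (adjusted permutation p = 0.0802 and 0.219). Astrocyte genes rose with IL18 (r = 0.52, rho 0.51), MYD88 (0.51, 0.42), CD14 (0.51, 0.40) and TLR2 (0.50, 0.39), each at an adjusted permutation p of 0.0166 for r, although only IL18 passed by rho (0.027), and without the 2 farthest piglets r was 0.45, 0.33, 0.41 and 0.29. Oligodendrocyte genes rose with MYD88 (r = 0.50, rho 0.47, adjusted permutation p = 0.0166 and 0.043) and with TLR2 by r only (0.44, rho 0.39, 0.0427 and 0.0922), and r without the 2 farthest piglets was 0.41 and 0.43. For endothelium, meninges, Purkinje cells, choroid plexus and red blood cells 0 of these correlations had an adjusted permutation p of r under 0.05. The share of reads counted for no gene was higher where TLR4 was lower (r = -0.46, rho = -0.31). Here the permutation p was 0.00641 and 0.075, and the adjusted p was 0.0449 and 0.326. Without the 2 farthest libraries r was -0.27. For the other 6 genes the adjusted permutation p of r was 0.191 or higher.

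**Figure D4:**
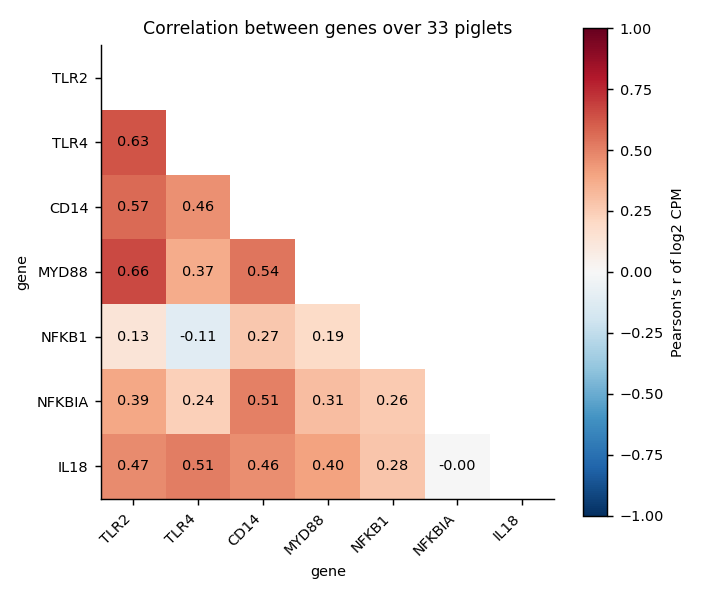
Pearson's r of log2 CPM between each pair of the 7 genes over 33 piglets; both axes list the genes, and colour and number give r. TLR2, TLR4, CD14, MYD88 and IL18 form a block of positive values, while the row of NFKB1 stays between -0.11 and 0.28.

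The genes were also set against each other in the same way. Of the 21 pairs, the highest r was 0.66 between TLR2 and its adaptor MYD88 (rho 0.57, permutation p = 1e-05 and 0.00075, adjusted p = 0.00021 and 0.00784, r = 0.56 without the 2 farthest piglets). TLR2 and TLR4 gave 0.63 (rho 0.55, permutation p = 0.00012 and 0.00112, adjusted p = 0.00126 and 0.00784, 0.52 without the 2 farthest piglets), and TLR4 and IL18 gave 0.51 (rho 0.55, permutation p = 0.00223 and 0.00102, adjusted p = 0.00833 and 0.00784, 0.59 without them). TLR4 and its co-receptor CD14 gave 0.46 (rho 0.36, permutation p = 0.00693 and 0.0393, adjusted p = 0.0162 and 0.084, 0.35 without them). TLR4 and MYD88, its adaptor as well, gave 0.37 and did not pass (rho 0.32, permutation p = 0.0325 and 0.066, adjusted p = 0.0569 and 0.116, 0.39 without them).

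NFKB1 passed with none of the others, and NFKBIA with some. NFKB1 had r between -0.11 and 0.28 with the other 6 genes, and 0 of these had an adjusted permutation p under 0.05. NFKB1 and NFKBIA gave 0.26 (rho 0.30, permutation p = 0.138 and 0.088, adjusted p = 0.182 and 0.142, 0.14 without the 2 farthest piglets). NFKBIA went with TLR2 by r (0.39, rho 0.29, permutation p = 0.0251 and 0.0979, adjusted p = 0.048 and 0.147, 0.25 without the 2 farthest piglets) and with CD14 (r = 0.51, rho 0.47, permutation p = 0.00238 and 0.00579, adjusted p = 0.00833 and 0.0243, 0.41 without the 2 farthest piglets) while its r with IL18 was near 0 (r = -0.0011, rho = -0.0037, permutation p = 0.995 and 0.985, adjusted p = 0.995 and 0.985, 0.07 without them).

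The 3 genes most like each of the 7, by the highest r of log2 CPM over the 33 piglets, are given as a description. They come from the same values as the correlations above. For TLR2 they were AIF1 (0.84), GPR34 (0.80) and SAMSN1 (0.80), of which AIF1 encodes the microglia protein IBA1, itself among the 9 markers, and GPR34 a receptor of microglia. For TLR4 they were GPR34 (0.78), ENSSSCG00000031640 (0.76) and SBDS (0.73). For CD14 they were ENSSSCG00000029371 (0.73), TREM2 (0.72), a lipid receptor of microglia also among the 9 markers, and SLC2A5 (0.72), a fructose transporter. For MYD88 they were GIMAP4 (0.78), LAPTM5 (0.77), a lysosomal protein of blood-lineage cells, and A2M (0.76).

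IL18 was most like CD84 (0.71), SLA-DMB (0.70), which loads peptides on class II molecules, and FGR (0.67), a kinase of myeloid cells. NFKBIA was most like CD163 (0.65), the haemoglobin scavenger receptor of perivascular macrophages, MTMR2 (0.61) and PTGFRN (0.59). NFKB1 was most like CHFR (0.66), ENSSSCG00000049383 (0.60) and GANC (0.60). Of all the genes named here as most like another, only AIF1 and TREM2 were on a marker list.

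The wider pathway was read from 80 further genes in 8 lists by role, of which 75 were matched and 63 had enough reads. As for the 7 genes, 0 of the 63 had an adjusted p under 0.05 in any of the 8 comparisons. Without adjustment 2 of 63 had a p under 0.05 for diet (PTGS2 and IRAK3), 0 for birth weight and 8 for the interaction, next to the background of 4.26%, 2.19% and 6.09% given above. For the pairs of groups the counts of 63 are given with the share of all genes in brackets. They were 4 for MILK-NBW against VEG-NBW (6.67%), 4 for MILK-IUGR against VEG-IUGR (3.9%), 3 for VEG-IUGR against VEG-NBW (2.29%) and 5 for MILK-IUGR against MILK-NBW (6.24%). For sex the count was 3 (2.94%).

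By role, the median log2 fold change for diet was 0.03 for the 6 further Toll-like receptors tested, -0.17 for 3 receptor partners, -0.03 for 14 adaptors and kinases, -0.02 for 7 IKK and NF-kB subunits, -0.0091 for 10 inhibitors, -0.02 for 6 cytokines and receptors, 0.06 for 4 inflammasome genes and 0.06 for 13 target genes. In MILK-IUGR against VEG-IUGR, singled out after its values were seen, 11 of 13 target genes had a positive estimate with a median log2 fold change of 0.19, and 2 of them had an unadjusted p under 0.05, beside a median of -0.00098 over all genes and the 3.9% given above. In MILK-NBW against VEG-NBW their median was 0.0033, and in VEG-IUGR against VEG-NBW, which shares the VEG-IUGR piglets, 3 of 13 were positive with a median of -0.14. In MILK-IUGR against MILK-NBW, which shares the MILK-IUGR piglets, 8 of 13 were positive with a median of 0.15. Piglet 225 of MILK-IUGR had the highest level of 4 of these target genes.

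**Figure D5:**
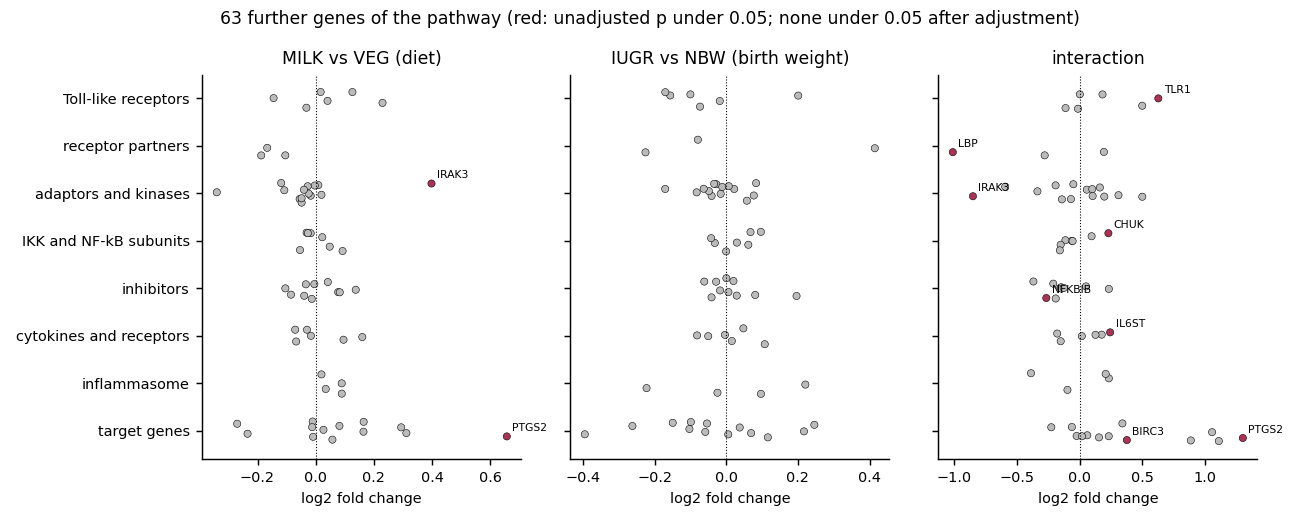
Log2 fold changes (x axis) of 63 further pathway genes in 8 lists by role (y axis) for diet, birth weight and the interaction, 1 point per gene; red points have an unadjusted edgeR p under 0.05. For birth weight 0 of 63 points are red, for diet 2 (PTGS2 and IRAK3) and for the interaction 8.

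The genes with the smallest p in each comparison are given with their levels, and none of them passed adjustment. BIRC3, an NF-kB target that blocks cell death, had the smallest p for the interaction, with 76.8 ± 8.37 CPM in VEG-NBW, 69.8 ± 6.07 in VEG-IUGR, 66.9 ± 7.83 in MILK-NBW and 78.3 ± 9.98 in MILK-IUGR. Its mean was lower with IUGR under VEG and higher with IUGR under MILK, and the interaction was 0.38 as a log2 value (95% CI 0.16 to 0.59, adjusted p = 0.784). BIRC3 was also named in MILK-IUGR against MILK-NBW (log2 fold change 0.25), MILK-NBW against VEG-NBW (-0.21) and MILK-IUGR against VEG-IUGR (0.17), which draw on the same 4 means. IL6ST, the signalling chain of the IL6 receptor, had means in the same order, 123 ± 8.94, 115 ± 10.5, 112 ± 8.06 and 123 ± 9.49 CPM, with an interaction of 0.24 (0.07 to 0.41, adjusted p = 0.784) and 0.17 in MILK-IUGR against MILK-NBW. It overlaps a non-coding gene in the annotation.

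IRAK3, a kinase relative that dampens signals from MYD88, stood at 1.89 ± 0.661 CPM in VEG-NBW, 2.68 ± 1.41 in VEG-IUGR, 3.34 ± 0.827 in MILK-NBW and 2.73 ± 0.939 in MILK-IUGR. Its log2 fold change was 0.84 in MILK-NBW against VEG-NBW (95% CI 0.31 to 1.38, adjusted p = 0.711) and 0.40 by diet (0.0074 to 0.79, adjusted p = 0.985). PTGS2, the inducible cyclooxygenase, stood at 0.676 ± 0.209, 0.392 ± 0.170, 0.704 ± 0.322 and 0.984 ± 0.921 CPM in the same order of groups. Its log2 fold change was 0.66 by diet (0.06 to 1.25, adjusted p = 0.985) and 1.31 in MILK-IUGR against VEG-IUGR (0.52 to 2.09, adjusted p = 0.996). Piglet 225 alone had 3.29 CPM, and without it these estimates were 0.41 and 0.80. PTGS2 overlaps PLA2G4A in the annotation.

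LBP, which carries lipopolysaccharide to CD14, was at 0.835 ± 0.470 CPM in VEG-NBW and 1.56 ± 0.758 CPM in VEG-IUGR, against 1.07 ± 0.235 in MILK-NBW and 0.997 ± 0.380 in MILK-IUGR. It had the smallest p for VEG-IUGR against VEG-NBW, with a log2 fold change of 0.92 (95% CI 0.31 to 1.53, adjusted p = 0.9996), and for birth weight as a whole, where it was 0.41 (-0.05 to 0.88). The chemokine gene CCL4 was at 0.605 ± 0.291 CPM in VEG-NBW and 0.304 ± 0.147 in VEG-IUGR, a log2 fold change of -0.91 (-1.71 to -0.10, adjusted p = 0.9996). LCN2, an iron-binding protein of the acute response, ran from 42.8 ± 8.45 CPM in MILK-IUGR to 55.2 ± 19.9 CPM in MILK-NBW, and its log2 fold change by birth weight was -0.26 (-0.56 to 0.04).

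Several cytokine and cytokine receptor genes of the pathway had few reads, like IL6. A read was found for IL10 in 30 of 33 libraries, for IL1A in 21, for CXCL8 in 20, for IL1R2 in 15, for IL12A in 12, for IL12B in 5 and for IL18RAP in 1. TRAF3 and IL18R1 were listed at 0 in all 33 libraries.

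None of the 7 genes passed the test for sex either, with 16 female and 17 male piglets in the comparison. The log2 difference of males from females lay between -0.21 for IL18 (95% CI -0.62 to 0.21, and -0.12 without piglet 217 or -0.32 without piglet 216) and 0.08 for CD14 (-0.16 to 0.32). Of the 63 pathway genes, TLR7, a receptor for single-stranded RNA, was named for sex, with a log2 difference of 0.09 (0.01 to 0.18), and it did not pass adjustment (adjusted p = 0.9997). TLR7 overlaps TLR8 in the annotation.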

How the data were processed

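Total RNA of the cerebellum, 1 library per piglet, was sequenced as 150-bp read pairs. The submitters' processing notes name Trim Galore, HISAT2, HTSeq and DESeq2 and the genome build Sscrofa11.1. Neither the release of the annotation nor the strand setting is given in the sources used here. The authors deposited 1 file of raw counts per library, with 31907 genes and 5 rows that name no gene, which were left out of library sizes and held 26.7% to 30.5% of reads in the libraries kept. Those shares were also used to set aside 3 libraries by Dixon's rule, because the study also dropped 3 libraries, for low RNA integrity. It names their groups, which are those of the 3 set aside here, but not the piglets.

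Symbols and positions came from a gene name table and a RefSeq gene table of Sscrofa11.1. Counts were filtered with filterByExpr (minimum count 10), scaled by TMM and tested with edgeR 4.0.16 (limma 3.58.1, R 4.3.3) by the quasi-likelihood F test, with sex in each model, all groups sharing 1 estimate of the spread, and Benjamini-Hochberg adjustment over 15356 genes. The script was tested on simulated data. CPM are reads per 1000000 reads on genes, and correlations used log2 CPM with a prior count of 2 and 100000 two-sided permutations. Counting error limits the genes of few reads, and p-values measure the spread between piglets. Alternatives included DESeq2 1.42.0, limma voom, other filters, all 36 libraries and each library left out in turn.

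The members and lists were chosen with earlier results of these data known. The text names all members, the 2 further pathway genes with the smallest p in each comparison, and the 3 genes most correlated with each member, except 1 pathway gene for sex that is not reported here.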

Additional observations from a re-analysis of the deposited data

Results flagged for a closer look

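Each of the 7 genes was screened in each of the 4 groups for a library far from the others of its group by Dixon's rule, which chance meets in about 1 in 20 groups. Of these 28 combinations 4 met it. TLR4 in MILK-IUGR was lowest in piglet 206 at 1.70 CPM, with the next piglet at 2.61 CPM. NFKB1 in MILK-NBW was lowest in piglet 234 at 9.98 CPM, with the next at 12.5 CPM. NFKBIA in MILK-NBW was highest in piglet 219 at 22.3 CPM, with the next at 20.1 CPM, only just past the critical value. IL18 in VEG-IUGR was highest in piglet 217 at 1.83 CPM, with the next at 1.11 CPM, and IL18 estimates that moved most without this piglet are given in the report.

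The library of piglet 210 (VEG-IUGR), which entered no comparison, held 274 reads of CD14, or 34.5 CPM, against at most 11.3 CPM in the 33 libraries compared. The same library had 0 reads of TLR2, TLR4, MYD88, NFKB1, NFKBIA and IL6 and 1 read of IL18, 64.3% of its reads were not assigned to a gene, and 6513 genes had a read. The source of its CD14 reads was not tested.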

How the results depend on the processing

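Of 41 to 43 alternatives for each comparison (33 that each left out 1 library, and other settings), 0 gave any of the 7 genes or of the 63 further pathway genes an adjusted p under 0.05, and the lowest adjusted p of one of the 7 genes was 0.483 (IL18 in VEG-IUGR against VEG-NBW with all 36 libraries). The estimates that turned sign were all near 0 or came with the 3 libraries set aside. With all 36 libraries they were, on the log2 scale, 0.046 for TLR4 and -0.15 for CD14 by diet, -0.0099 for TLR2, 0.21 for CD14, -0.038 for MYD88, -0.070 for NFKBIA and 0.058 for LCN2 by birth weight, and -0.11 for NFKBIA in VEG-IUGR against VEG-NBW, and r of CD14 with the microglia genes was -0.42 (rho 0.51). With limma voom CD14 gave 0.014 by birth weight. In residuals after groups and sex, r of IL18 with the share of reads counted for no gene was -0.050 in place of 0.027. With 1 library left out, the ranges were -0.056 to 0.051 for TLR4 by diet and, by birth weight, -0.013 to 0.14 for TLR2, -0.052 to 0.037 for CD14 and -0.00060 to 0.075 for MYD88. The cause was not tested. Without a filter on low counts (25708 genes) IL6 had an unadjusted edgeR p of 0.0414 for diet and 0.00914 for MILK-NBW against VEG-NBW, resting on 7 reads. Of 1409 values for 34 smaller member estimates, 116 changed sign. No permutation test of a single gene was run, because none of the 7 had an unadjusted p under 0.05. No paired analysis was possible because the labels give no number that pairs piglets across groups. Genes with few reads (IL18, TLR2, TLR4) limit what could be seen, and where genes overlap, ambiguous reads might be missing from their counts.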

Other observations

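Piglet 225 (MILK-IUGR) had, besides the highest NFKB1 and NFKBIA of the 33 piglets, the highest level of 5 further pathway genes: the NF-kB targets CXCL10 (14.5 CPM against a median of 1.80), PTGS2 (3.29 against 0.601), IER3 (3.58 against 1.30) and BIRC3 (101 against 72.3), and the kinase gene MAP3K7 (59.3 against 49.1). Its microglia genes summed to 160 CPM and ranked 29 of 33. Piglet 216 (VEG-NBW) had the highest level of 8 other pathway genes that had a read in every library, among them TLR1, TLR9, UNC93B1 and TNFRSF1A, and the highest microglia genes. Both piglets were singled out after their values were seen, and no test was run.

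Transcripts of choroid plexus varied most of the marker lists, with a sum of TTR, CLIC6 and 1 further gene from 4.10 to 1619 CPM, highest in a MILK-IUGR piglet (231). The haemoglobin gene HBB had a log2 fold change of -1.09 for diet (95% CI -1.78 to -0.39, edgeR adjusted p = 0.985), and PECAM1, a gene of endothelium, 0.29 (0.10 to 0.47, adjusted p = 0.985). HBB reached 36.6 CPM in piglet 211 of VEG-IUGR, against a median of 3.80 CPM over the 33 libraries compared.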
